A study of Mus musculus with 19 samples.

Results

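*Elf2*, *Trpm7*, *Ankfy1*, *Hdlbp* and *Gnptab* were called higher in common myeloid progenitors (CMPs) when *Spehd* was knocked down. They were the only 5 called higher by edgeR at an adjusted p under 0.05, of 12912 genes tested and 54352 counted. DESeq2 called 447 genes higher in the same comparison. The 5 genes were chosen from a comparison of both *Spehd* shRNAs with *Renilla* shRNA in CMPs. Their rise in that comparison is therefore a description and was given no test here. The data are RNA-seq libraries of CMPs and of LSK cells (Lin- Sca1+ cKit+, the compartment that holds the stem cells) sorted from the bone marrow of mice, of a strain labelled C57BL6. The study's methods name the recipients of inducible shRNAs as sub-lethally irradiated C57BL/6-CD45.1; cKit-w41 mice, which carry a *Kit* allele of reduced activity, and the donors as C57BL6J. All 19 libraries came from recipients of HSCs carrying a doxycycline-inducible shRNA, which had 10 weeks to reconstitute and then 6 days of doxycycline food, and all cells were sorted as zsGreen+, the reporter of shRNA expression. The shRNA was sh10 or sh20, both against the lncRNA *Spehd*, or a control against *Renilla* luciferase, a gene mice do not have. CMPs gave 4 libraries with *Renilla* shRNA, 3 with sh10 and 2 with sh20, and LSK cells gave 4, 3 and 3. The labels do not say whether each library came from its own animal or whether a CMP and an LSK library came from the same animal, so the spread between libraries may be partly technical. In these bulk samples, fewer cells of a type and less RNA per cell cannot be told apart.

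A hematopoietic stem cell gives rise to progenitors of narrowing potential, and the CMP stands between the LSK compartment and the progenitors of red cells, platelets, granulocytes and monocytes. The 5 genes belong to no common pathway. *Elf2* encodes an ETS family transcription factor, a family that reads a short motif with a GGAA core and includes several regulators of blood cell fate. *Trpm7* encodes a cation channel joined to a kinase, which lets magnesium, zinc and calcium into the cell. *Ankfy1* encodes rabankyrin-5, an effector of the small GTPase Rab5 on early endosomes. *Hdlbp* encodes vigilin, an RNA binding protein built of many KH domains that associates with mRNAs translated at the endoplasmic reticulum. *Gnptab* encodes the catalytic part of the phosphotransferase that starts the mannose 6-phosphate tag, by which newly made hydrolases are sent to the lysosome.

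The genes lie on 5 chromosomes. In the GENCODE vM21 annotation of GRCm38, *Elf2* (ENSMUSG00000037174.18) was at chr3:51252720-51340663 on the minus strand, *Trpm7* (ENSMUSG00000027365.14) at chr2:126791565-126876230 on the minus strand, *Ankfy1* (ENSMUSG00000020790.14) at chr11:72690006-72772146 on the plus strand, *Hdlbp* (ENSMUSG00000034088.15) at chr1:93405940-93478815 on the minus strand and *Gnptab* (ENSMUSG00000035311.16) at chr10:88379132-88447329 on the plus strand. All are large multi-exon genes. Their summed exonic lengths were 9563 bases for *Elf2*, 11315 for *Trpm7*, 11332 for *Ankfy1*, 11320 for *Hdlbp* and 5883 for *Gnptab*. Exons of *Elf2* shared 371 bases with 4930577N17Rik on the other strand, a gene with 16 to 112 counts per library, and exons of *Gnptab* shared bases with Gm26546 (158 bases, 3 to 29 counts) and Gm16235 (107 bases, 10 to 66 counts). The study's methods report default settings for its software where nothing else is specified, and name no strand setting for the counting. From the counts alone, reads in the shared bases cannot be assigned to a strand. The counts of the overlapping genes were below those of *Elf2* (206 to 790) and *Gnptab* (489 to 1775).

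An shRNA is processed to a guide of 22 bases that can lower other transcripts through its seed, bases 2 to 8 from the 5′ end. The guides are shown, in DNA letters with the seed in capitals, because the 5 genes differ in which of these seeds they match.
*Renilla* shRNA guide: tAGATAAGcattataattccta
sh10 guide: tACAAAGTcagcttttcctctc
sh20 guide: tATGCTATgacaacccagggca
No seed is shared by any pair of these guides, and no annotated transcript holds the 21-base target of any of them. A perfect match to a seed was found at 3 places in the annotated 3′ UTRs of the 5 genes, printed with 10 bases on each side and the match in capitals.
*Elf2* site for sh10: ataactatgtACTTTGTattgaacata
*Elf2* site for *Renilla* shRNA: ggcacaaggtCTTATCTttcttgcttt
*Hdlbp* site for sh10: aagaacatctACTTTGTtcagtaggct
The *Elf2* sites for sh10 and for *Renilla* shRNA lay at positions 1094 and 1584 of a 1875-base 3′ UTR. The *Hdlbp* site for sh10 lay at position 1682 of 2233. Each position is in the first annotated transcript found to hold the site, and other transcripts with the same site were not listed. *Trpm7*, *Ankfy1* and *Gnptab* held no match to any of the 3 seeds, and none of the 5 held a match to that of sh20. Of 21022 genes with a 3′ UTR, 17.9% held a match to the sh10 seed, 9.13% to the sh20 seed and 8.98% to the *Renilla* seed. Among the 11357 of them tested in CMPs, the 1097 genes with a *Renilla* seed match had a median log2 fold change of 0.10 with both *Spehd* shRNAs, against 0.02 for the genes without. Genes with matches to the seeds of sh10 (0.08) and sh20 (0.09) had medians of the same size, and genes with a *Renilla* match also had longer 3′ UTRs, with a median of 2677 bases against 1063. In LSK cells the median was -0.03 with a *Renilla* match and 0.01 without, and both were 0.01 without sh10 replicate B, an LSK library described below.

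The promoters are printed because the genes rose together. Each runs from 250 bases before to 50 bases after a start in RefSeq (GRCm38.p6), in lower case, and 1 is shown per gene of the 8 that matched by symbol. *Elf2* had 2 promoters and *Hdlbp* 3, and for each the one shown was chosen among those with a match that is not a GC box. For *Hdlbp* the promoter at chr1:93478328-93478627 also held such a match. Both promoters shown lie inside the annotated genes. Those at the annotated 5′ ends, chr3:51340595-51340894 for *Elf2* and chr1:93478868-93479167 for *Hdlbp*, held only GC boxes. Both strands were searched for CCGGAAG (ETS), TGANTCA (AP-1), CACGTG (E-box) and TGACGT (the core of the cAMP response element), with matches in capitals, and for GGGCGG (GC box), which is not marked.
*Elf2* promoter, chr3:51277465-51277764, minus strand: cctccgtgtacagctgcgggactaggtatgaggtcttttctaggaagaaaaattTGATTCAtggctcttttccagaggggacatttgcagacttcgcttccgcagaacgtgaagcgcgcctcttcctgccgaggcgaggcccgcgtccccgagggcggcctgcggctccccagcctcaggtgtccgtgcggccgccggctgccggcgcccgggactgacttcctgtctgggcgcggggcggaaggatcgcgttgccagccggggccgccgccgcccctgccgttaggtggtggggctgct
*Trpm7* promoter, chr2:126876212-126876511, minus strand: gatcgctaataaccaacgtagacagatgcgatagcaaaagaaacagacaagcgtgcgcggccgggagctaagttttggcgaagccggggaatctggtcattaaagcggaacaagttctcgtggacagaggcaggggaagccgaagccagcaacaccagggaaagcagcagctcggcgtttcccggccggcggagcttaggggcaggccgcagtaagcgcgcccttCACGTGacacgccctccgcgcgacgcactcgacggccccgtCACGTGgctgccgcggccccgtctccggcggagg
*Ankfy1* promoter, chr11:72689752-72690051, plus strand: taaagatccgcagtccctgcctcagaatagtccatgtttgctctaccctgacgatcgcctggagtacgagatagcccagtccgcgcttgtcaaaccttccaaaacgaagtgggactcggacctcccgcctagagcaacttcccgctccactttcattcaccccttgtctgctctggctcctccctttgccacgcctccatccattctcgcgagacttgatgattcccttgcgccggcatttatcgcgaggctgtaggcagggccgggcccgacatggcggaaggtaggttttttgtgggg
*Hdlbp* promoter, chr1:93445652-93445951, minus strand: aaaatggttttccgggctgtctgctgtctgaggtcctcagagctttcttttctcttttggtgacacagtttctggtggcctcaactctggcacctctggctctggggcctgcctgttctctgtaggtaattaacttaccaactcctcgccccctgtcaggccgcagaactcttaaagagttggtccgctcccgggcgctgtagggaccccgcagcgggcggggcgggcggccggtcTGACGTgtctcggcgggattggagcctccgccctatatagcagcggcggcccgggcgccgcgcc
*Gnptab* promoter, chr10:88379018-88379317, plus strand: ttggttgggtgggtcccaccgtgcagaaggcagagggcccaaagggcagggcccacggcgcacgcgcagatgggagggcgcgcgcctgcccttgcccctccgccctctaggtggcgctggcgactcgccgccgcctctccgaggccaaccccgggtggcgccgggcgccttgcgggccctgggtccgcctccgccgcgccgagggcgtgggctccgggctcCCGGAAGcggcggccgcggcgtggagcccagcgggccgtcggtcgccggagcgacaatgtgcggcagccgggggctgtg
The *Gnptab* promoter held 1 ETS match, found in 8.86% of all 32851 promoters in the table. The *Elf2* promoter shown held 1 AP-1 match, found in 7.81% of promoters, and the other, at chr3:51340595-51340894, held 0. The *Trpm7* promoter held 2 E-boxes and another *Hdlbp* promoter held 1, a motif found in 7.15% of promoters. The *Hdlbp* promoter shown held 1 match to the cAMP response element core, found in 7.51% of promoters, and the others held 0. The *Ankfy1* promoter held none of the 5 motifs, and GC boxes, found in 35.7% of promoters, were in those of *Elf2*, *Hdlbp* and *Gnptab*. No motif of the 5 was in the promoters of all 5 genes.

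The depth of the libraries, as reads counted on genes, was 3647318 to 5965155. Every CMP library with a *Spehd* shRNA (4918631 to 5965155 counts) was deeper than every CMP library with *Renilla* shRNA (3857980 to 4314959). The LSK library with sh10 labelled replicate B stood apart, as its counts were low in long genes, and the LSK fold changes of the 5 genes are given with and without it. *Ly6a*, which encodes Sca1, was at 39.7 to 90.7 CPM (counts scaled to library size) in LSK cells and 1.58 to 9.72 CPM in CMPs, and *Kit* was at 438 or more CPM in every library. No gene counted is named *Spehd*, so the targeted RNA was not analysed here.

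*Elf2* was lowest in CMPs with *Renilla* shRNA, and in CMPs it was 2.29-fold higher with sh10 and 1.92-fold higher with sh20. CPM values of the 5 genes are after TMM normalization of all libraries. In CMPs with *Renilla* shRNA, replicates A to D were at 62.9, 50.2, 62.4 and 68.0 CPM. With sh10 the CMP libraries were at 151, 122 and 147 CPM, and with sh20 at 134 and 97.3 CPM. No *Spehd* library overlapped a control library in CMPs, the nearest being sh20 replicate C. The log2 fold change against *Renilla* shRNA was 1.20 ± 0.15 (SE) with sh10 and 0.94 ± 0.16 with sh20. The sh20 value rested on 2 unequal libraries and was 0.68 without replicate B and 1.16 without replicate C. In LSK cells *Elf2* was at 134, 91.6, 105 and 155 CPM with *Renilla* shRNA, 122, 75.0 and 137 with sh10, and 79.7, 117 and 90.6 with sh20. The 3 LSK groups overlapped, and the CMP libraries with *Spehd* shRNAs fell within or next to their range.

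*Trpm7* rose with both hairpins in CMPs to above the range of control LSK cells. It was at 95.1, 126, 111 and 96.7 CPM in CMPs with *Renilla* shRNA, at 171, 166 and 185 CPM with sh10 and at 206 and 170.0 CPM with sh20. Every *Spehd* library was above the highest control, replicate B. The log2 fold change was 0.70 ± 0.11 (SE) with sh10 and 0.83 ± 0.12 with sh20. *Trpm7* in LSK cells was at 149, 129, 148 and 162 CPM with *Renilla* shRNA, 186, 42.9 and 206 with sh10, and 137, 128 and 161 with sh20. The sh10 replicate B, at 42.9 CPM, was the lowest of all 19 libraries for this gene.

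*Ankfy1* showed narrow groups in CMPs. It was at 134, 137, 142 and 118 CPM with *Renilla* shRNA, at 186, 186 and 206 CPM with sh10 and at 189 and 201 CPM with sh20. The log2 fold changes were 0.53 ± 0.08 (SE) and 0.57 ± 0.09, a difference between hairpins of 0.04. In LSK cells *Ankfy1* was at 187, 178, 172 and 183 CPM with *Renilla* shRNA, 163, 70.8 and 215 with sh10, and 119, 140.0 and 166 with sh20. All 3 LSK libraries with sh20 lay below all 4 with *Renilla* shRNA, the opposite order to that in CMPs.

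*Hdlbp* rose in CMPs to above every LSK library. It was at 231, 249.5, 262 and 222 CPM in CMPs with *Renilla* shRNA, at 346, 359 and 349.7 CPM with sh10 and at 336 and 365 CPM with sh20. The 5 *Spehd* libraries spanned only 336 to 365 CPM. The log2 fold changes were 0.54 ± 0.07 (SE) with sh10 and 0.56 ± 0.07 with sh20. *Hdlbp* in LSK cells was at 247, 259, 272 and 265 CPM with *Renilla* shRNA, 290.3, 134 and 301 with sh10, and 237, 267 and 316 with sh20.

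*Gnptab* rose least of the 5 in CMPs and stayed within or below the range of control LSK cells. It was at 138, 147, 130.2 and 150.0 CPM in CMPs with *Renilla* shRNA, at 201, 195 and 208 CPM with sh10 and at 188 and 187 CPM with sh20. The log2 fold changes were 0.51 ± 0.07 (SE) with sh10 and 0.43 ± 0.07 with sh20. *Gnptab* in LSK cells was at 216, 243, 244 and 195 CPM with *Renilla* shRNA, 263, 93.6 and 321 with sh10, and 201, 167 and 274 with sh20. The sh10 replicate B was again the lowest of the 19 libraries.

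**Figure D1:**
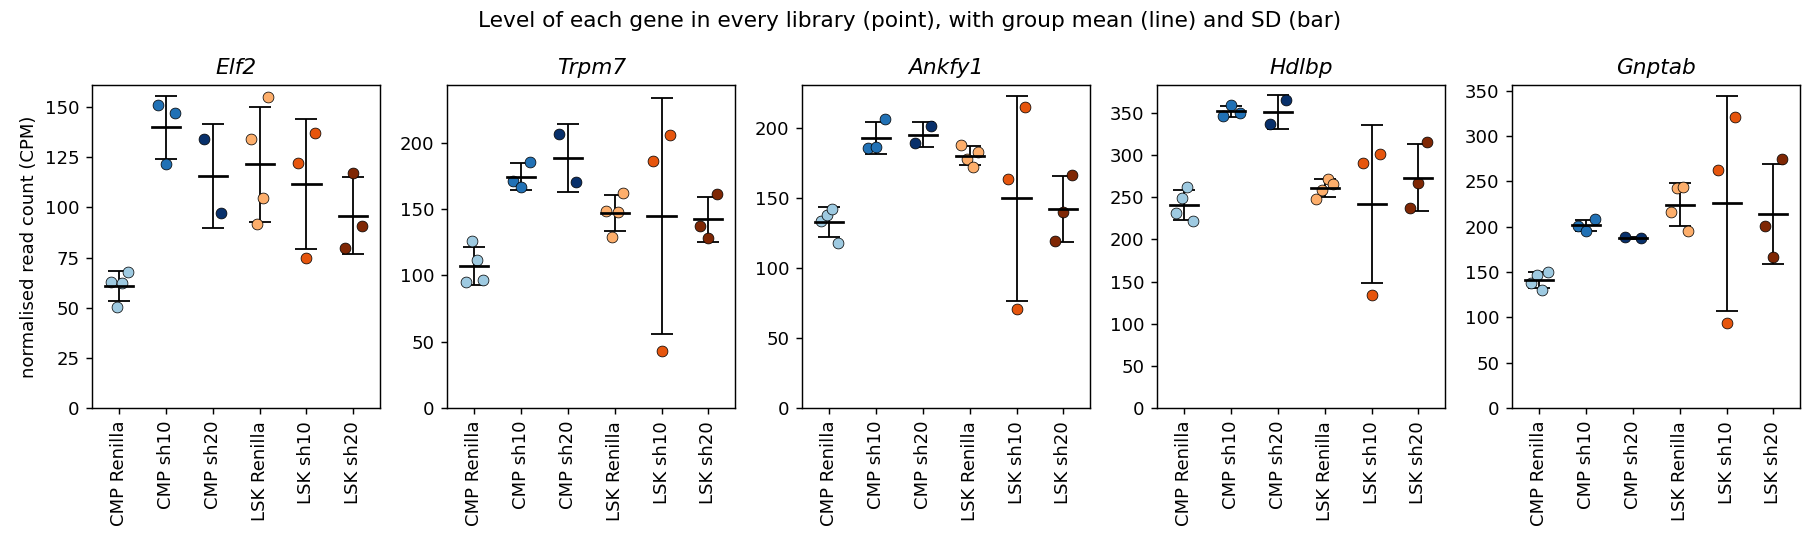
Level of each gene in CPM, on linear axes from 0, for the 6 groups of cell type and shRNA. Points are libraries, lines are group means and bars are SD (n = 2 to 4). CMPs with *Renilla* shRNA lie below all CMP libraries with sh10 or sh20 for every gene, and the low sh10 point in LSK cells is replicate B.

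Placed in order of mean log2 CPM, CMPs with *Renilla* shRNA were the lowest of the 6 groups for *Elf2*, *Trpm7*, *Ankfy1* and *Gnptab*, and second lowest for *Hdlbp*, after LSK cells with sh10. Without LSK sh10 replicate B they were the lowest for all 5. Few neighbours in the order were separate. With all libraries, for *Elf2* the gap of 0.64 between CMPs with *Renilla* shRNA and the next group, LSK cells with sh20, was the only step without overlap, and the other 5 groups ran into each other. For *Gnptab* the only such step was the gap of 0.41 between CMPs with *Renilla* shRNA and CMPs with sh20. For *Trpm7* it was the gap of 0.25 between LSK cells with *Renilla* shRNA and CMPs with sh10, for *Ankfy1* the gap of 0.36 between LSK cells with sh20 and LSK cells with *Renilla* shRNA, and for *Hdlbp* the gap of 0.37 between LSK cells with sh20 and CMPs with sh20. Without LSK sh10 replicate B the order held more such steps. For *Trpm7*, CMPs with *Renilla* shRNA (95.1 to 126 CPM) were then also separate from LSK cells with sh20 (128 to 161 CPM), and LSK cells with sh10 became the highest group. For *Gnptab*, LSK cells with sh10 also became the highest group, separate from LSK cells with *Renilla* shRNA by 0.38, and CMPs with sh20 were separate from CMPs with sh10 by 0.10. For *Hdlbp* the step below CMPs with sh20 was then 0.25, from LSK cells with sh10, while the steps of *Elf2* and *Ankfy1* stayed as given. Per kilobase of exon, in CMPs with *Renilla* shRNA, the level was 24.0 ± 1.51 CPM per kb (SD, n = 4) for *Gnptab*, 21.3 ± 1.59 for *Hdlbp*, 11.7 ± 0.93 for *Ankfy1*, 9.48 ± 1.27 for *Trpm7* and 6.37 ± 0.79 for *Elf2*.

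Between the cell types, in a fit of all 19 libraries and given as a description, the control CMPs differed from the control LSK cells by a log2 fold change of -0.996 ± 0.20 (SE) for *Elf2*, -0.67 ± 0.25 for *Gnptab*, -0.45 ± 0.30 for *Trpm7*, -0.44 ± 0.21 for *Ankfy1* and -0.11 ± 0.17 for *Hdlbp*. With sh10 in both cell types the same contrast was 0.33 ± 0.23 for *Elf2*, -0.16 ± 0.28 for *Gnptab*, 0.27 ± 0.34 for *Trpm7*, 0.36 ± 0.24 for *Ankfy1* and 0.54 ± 0.20 for *Hdlbp*. With sh20 it was 0.27 ± 0.25, -0.19 ± 0.32, 0.40 ± 0.37, 0.46 ± 0.27 and 0.36 ± 0.22 in the same order of genes. The contrast with sh10 rested on LSK sh10 replicate B, and without that library it was 0.14 ± 0.21 for *Elf2*, -0.51 ± 0.15 for *Gnptab*, -0.14 ± 0.13 for *Trpm7*, 0.054 ± 0.13 for *Ankfy1* and 0.28 ± 0.099 for *Hdlbp*. The contrasts with *Renilla* shRNA and with sh20 moved by less than the spread between libraries. The control CMP libraries that chose the genes enter these contrasts.

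The 5 genes are all that passed an adjusted p of 0.05 (edgeR's quasi-likelihood test, Benjamini-Hochberg) as higher in CMPs with both *Spehd* shRNAs, 0.0387% of 12912 genes tested, and 10 genes (0.0774%) passed as lower. With upper quartile in place of TMM normalization the split was 44 higher and 284 lower, and DESeq2 called 447 higher, 4.94% of the genes it adjusted, and 435 lower. The last gene inside the threshold was *Trpm7* (adjusted p = 0.0333, log2 fold change 0.75), and just outside it lay *Ms4a6c* (0.0564, 1.96), *Tsc2* (0.0564, 0.44) and *Hs6st1* (0.0564, 0.69). Of the 12912 genes, 2.88% had every *Spehd* library above every *Renilla* library in CMPs, as these 5 had. Against the same control libraries, sh10 alone gave 135 genes called higher (0.977%) and 137 lower (0.991%), sh20 alone gave 263 (1.9%) and 590 (4.27%), and 16 genes (0.116%), the 5 among them, were called with each. Since the rule used these libraries, nothing is read from these shares.

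LSK cells were not used to choose the genes, and there the knockdown could be tested. None of the 5 genes passed in LSK cells with both *Spehd* shRNAs, where edgeR called 0 of 13441 genes (0% higher and 0% lower) and 492 had an unadjusted p under 0.05. DESeq2, which was run without the filter on low counts used for edgeR, also called 0 in this comparison. The log2 fold changes were -0.24 for *Elf2*, -0.04 for *Trpm7*, -0.31 for *Ankfy1*, -0.03 for *Hdlbp* and -0.04 for *Gnptab*, each with an edgeR adjusted p of 0.998. Their 95% intervals ran from -0.68 to 0.20 for *Elf2*, -0.71 to 0.62 for *Trpm7*, -0.80 to 0.17 for *Ankfy1*, -0.43 to 0.37 for *Hdlbp* and -0.60 to 0.53 for *Gnptab*. An exact permutation test of log2 CPM (two-sided, 6 libraries against 4, smallest possible p = 0.00952) gave p = 0.343 for *Elf2*, 0.943 for *Trpm7*, 0.181 for *Ankfy1*, 0.952 for *Hdlbp* and 0.838 for *Gnptab*.

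Without sh10 replicate B, the LSK log2 fold changes with both shRNAs were -0.17 for *Elf2*, 0.14 for *Trpm7*, -0.18 for *Ankfy1*, 0.10 for *Hdlbp* and 0.11 for *Gnptab*, with edgeR adjusted p from 0.873 to 0.938. *Trpm7*, *Hdlbp* and *Gnptab* thus changed sign with that library. The intervals narrowed to between -0.09 and 0.28 for *Hdlbp* and between -0.17 and 0.45 for *Trpm7*, and *Gnptab* reached 0.48 at its upper bound. The exact permutation test without it (5 libraries against 4, smallest possible p = 0.0159) gave p = 0.556 for *Elf2*, 0.444 for *Trpm7*, 0.302 for *Ankfy1*, 0.254 for *Hdlbp* and 0.619 for *Gnptab*.

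By hairpin, too, none of the 5 genes passed in LSK cells. Of 13828 genes, edgeR called 0 with sh10 (457 at an unadjusted p under 0.05) and 0 with sh20 (1152). DESeq2, again without the filter, called 3 and 195. With sh20 the log2 fold changes were -0.37 for *Elf2*, -0.07 for *Trpm7*, -0.37 for *Ankfy1*, 0.04 for *Hdlbp* and -0.09 for *Gnptab* (edgeR adjusted p from 0.771 to 0.992). Fitted without sh10 replicate B, which enters the estimate of the spread, the sh20 values were -0.38 for *Elf2*, -0.084 for *Trpm7*, -0.38 for *Ankfy1*, 0.029 for *Hdlbp* and -0.11 for *Gnptab*. The interval of *Ankfy1* then ran from -0.66 to -0.10 (unadjusted p = 0.0120, edgeR adjusted p = 0.229), and those of the other 4 genes included 0. *Ankfy1*, with its 3 sh20 libraries below all controls, had p = 0.0571 in the exact permutation test, the smallest that 3 libraries against 4 allow, among 20 such tests of the 5 genes in LSK cells. With sh10 the values were -0.12, -0.02, -0.26, -0.11 and 0.01 in the same order, and without replicate B they were 0.09, 0.41, 0.07, 0.17 and 0.37. The 0.41 of *Trpm7* had a 95% interval of 0.14 to 0.68, an unadjusted p of 0.00657 and an adjusted p of 0.9997 in edgeR. With all LSK libraries the difference of sh20 from sh10 was -0.052 for *Trpm7*, -0.10 for *Gnptab*, -0.25 for *Elf2*, -0.10 for *Ankfy1* and 0.15 for *Hdlbp* (edgeR adjusted p from 0.844 to 0.986). Without replicate B it was -0.49 for *Trpm7* (95% interval -0.78 to -0.21, edgeR adjusted p = 0.156), -0.48 for *Gnptab* (-0.88 to -0.07, 0.328), -0.47 for *Elf2* (-0.96 to 0.02, 0.435), -0.45 for *Ankfy1* (-0.77 to -0.12, 0.261) and -0.14 for *Hdlbp* (-0.39 to 0.10, 0.665). In CMPs the same difference, a description, was -0.26 for *Elf2*, 0.13 for *Trpm7*, 0.04 for *Ankfy1*, 0.01 for *Hdlbp* and -0.08 for *Gnptab*.

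**Figure D2:**
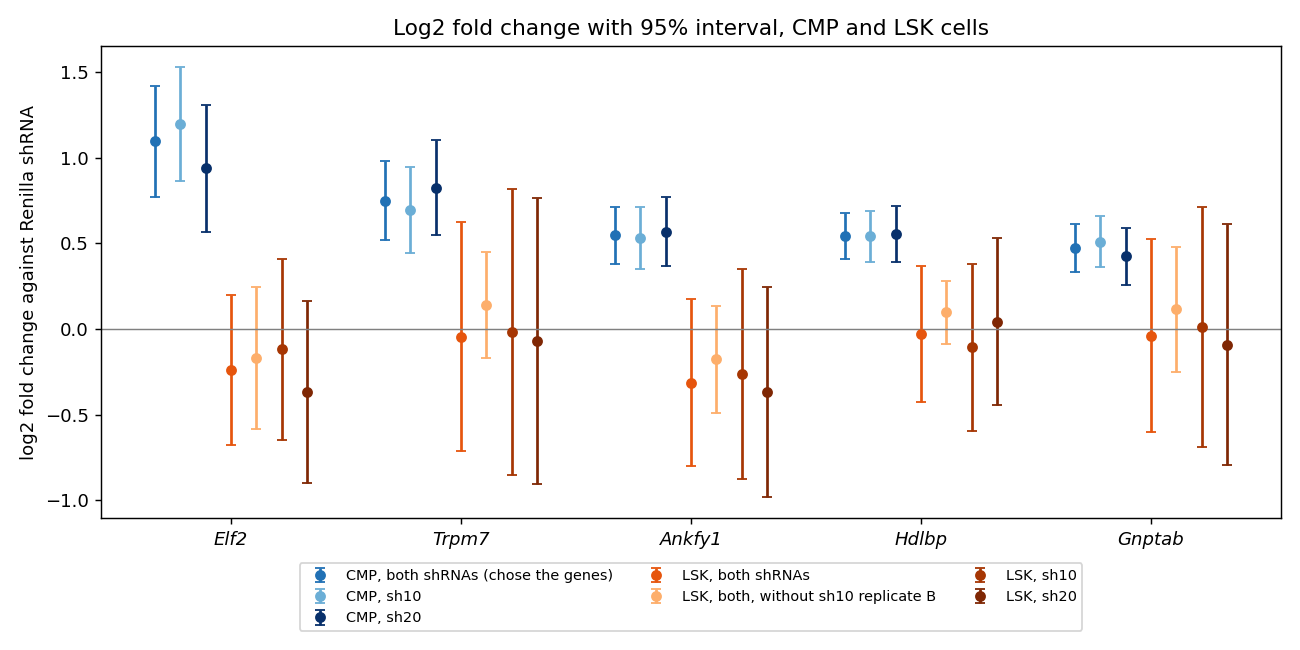
Log2 fold change of each gene against *Renilla* shRNA in CMPs (blue) and LSK cells (orange and brown), with 95% intervals from edgeR. The CMP values chose the genes. The LSK values plotted, by hairpin with all libraries and for both shRNAs with and without sh10 replicate B, run from -0.37 to 0.14, and their intervals include 0. The values by hairpin without that library, where the intervals of *Trpm7* with sh10 and *Ankfy1* with sh20 do not include 0, are not plotted.

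Set as the effect in CMPs less that in LSK cells, in the fit of all 19 libraries, the values were 1.30 ± 0.26 (SE) for *Elf2*, 0.85 ± 0.28 for *Ankfy1*, 0.79 ± 0.39 for *Trpm7*, 0.56 ± 0.23 for *Hdlbp* and 0.49 ± 0.32 for *Gnptab*. Without LSK sh10 replicate B they were 1.19 ± 0.23, 0.69 ± 0.13, 0.58 ± 0.14, 0.42 ± 0.10 and 0.31 ± 0.16 in the same order. The CMP part of this difference chose the genes, so it was given no test.

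Library depth and gene length moved with these results. Genes of known exonic length that averaged 50 or more counts, 10433 in all, were put into 10 classes by that length. From the shortest to the longest class the median log2 fold change with both *Spehd* shRNAs in CMPs went from -0.18 to 0.19, and in LSK cells from 0.06 to -0.15, or from -0.01 to -0.06 without sh10 replicate B. *Trpm7*, *Ankfy1* and *Hdlbp* were longer than 93.2%, 93.3% and 93.2% of these genes, *Elf2* than 88.8% and *Gnptab* than 66.5%. Within its own class, the CMP log2 fold change of *Elf2* was exceeded by 10 of 1043 genes, that of *Trpm7* by 32 of 1044, that of *Gnptab* by 77 of 1041, that of *Ankfy1* by 117 of 1044 and that of *Hdlbp* by 120 of 1044. With an offset that follows exonic length in each library, the CMP log2 fold changes were 0.94 for *Elf2*, 0.59 for *Trpm7*, 0.38 for *Ankfy1*, 0.38 for *Hdlbp* and 0.39 for *Gnptab*. With log2 total counts as a covariate over all 19 libraries, they were 0.88 for *Elf2*, 0.12 for *Trpm7*, 0.07 for *Ankfy1*, 0.20 for *Hdlbp* and -0.04 for *Gnptab*. In CMPs the totals of the *Spehd* and *Renilla* libraries do not overlap, so depth and knockdown cannot be told apart there within a cell type.

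**Figure D3:**
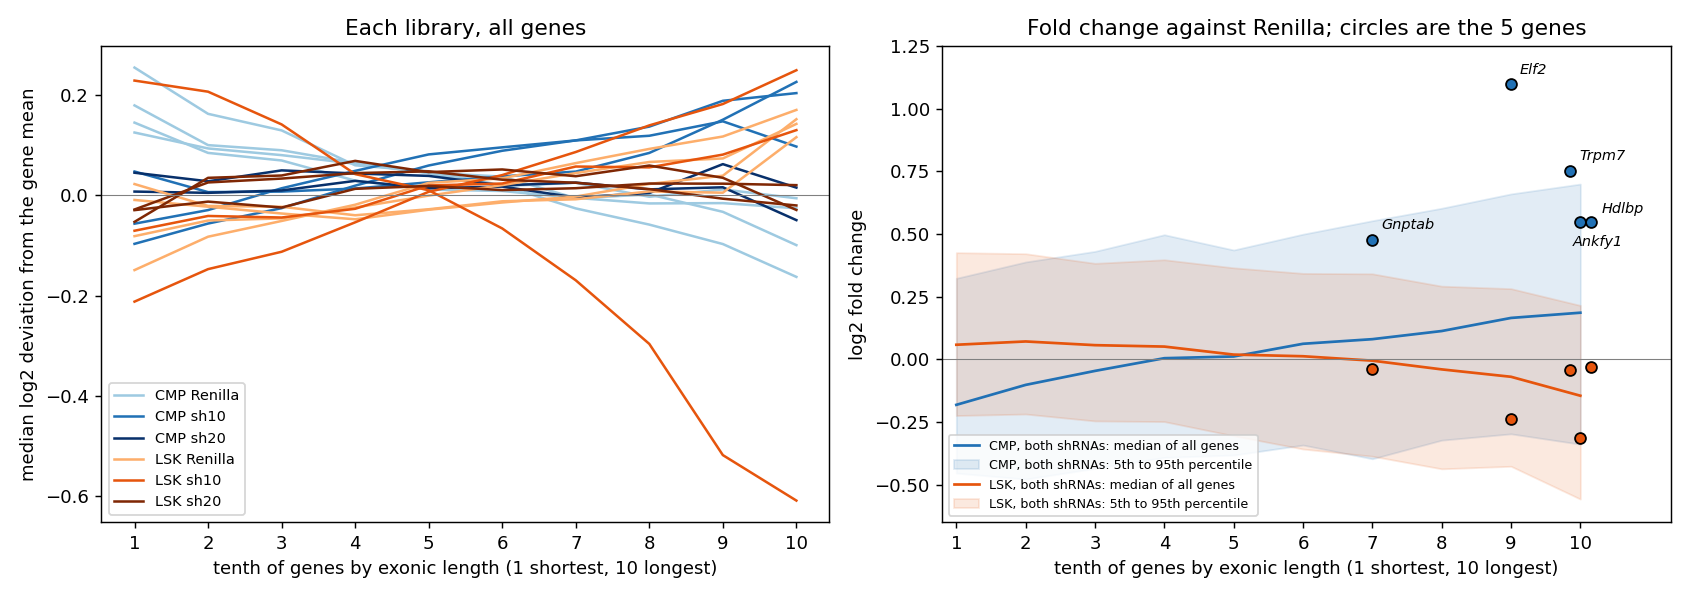
Left, median log2 deviation of genes from their mean over 19 libraries, by class of exonic length, with 1 line per library. The sh10 library of LSK cells that falls to -0.61 in the longest class is replicate B. Right, log2 fold change against *Renilla* shRNA by length class, with the median (line) and the 5th to 95th percentile (band) of all genes and the 5 genes as circles. *Elf2* lies furthest from the median of its class in CMPs.

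**Figure D4:**
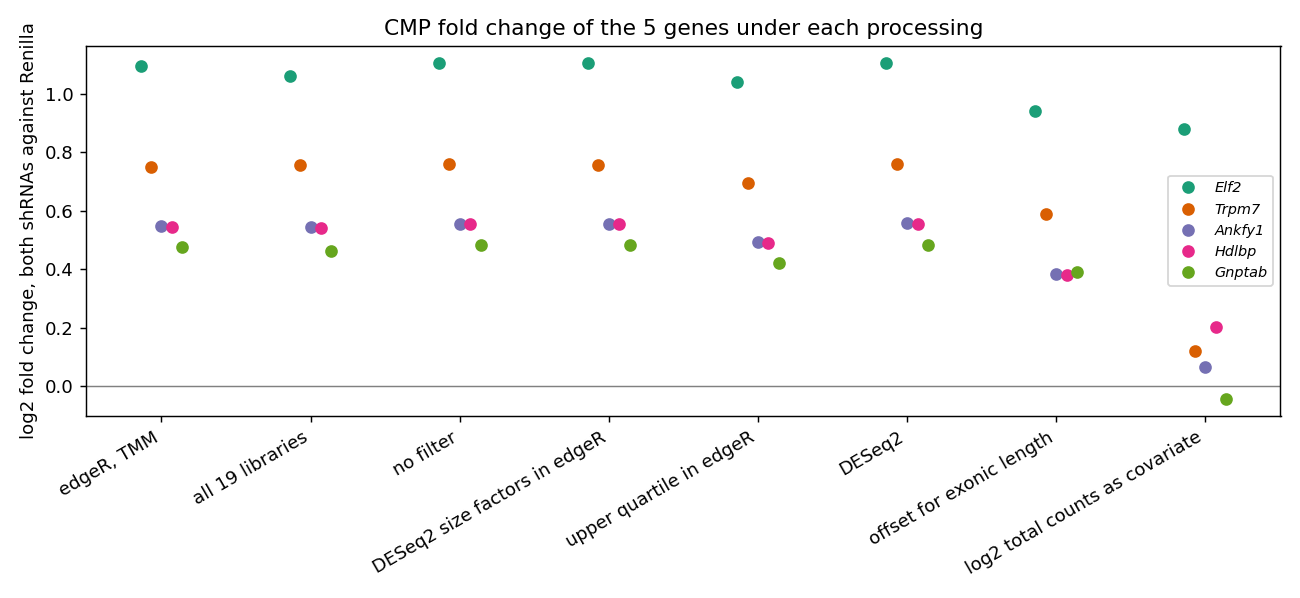
CMP log2 fold change of *Elf2*, *Trpm7*, *Ankfy1*, *Hdlbp* and *Gnptab* with both *Spehd* shRNAs, under 8 ways of processing the counts. In the 8 settings plotted *Elf2* is between 0.88 and 1.11, and the other 4 genes fall to between -0.04 and 0.20 with log2 total counts as a covariate.

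*Elf2* followed other genes than the rest. Across the 19 libraries, Pearson's r of log2 CPM was 0.63 to 0.92 between pairs of *Trpm7*, *Ankfy1*, *Hdlbp* and *Gnptab*, and 0.53 to 0.65 between *Elf2* and these. With the group means removed, r was 0.90 to 0.96 among the 4 and 0.39 to 0.60 with *Elf2*. Without LSK sh10 replicate B, which was low in all 5, these became 0.30 to 0.73 and -0.41 to 0.17. Of the median deviation of the longest class in each library, also with the group means removed and without that library, r was 0.70 for *Ankfy1*, 0.50 for *Trpm7*, 0.44 for *Hdlbp*, 0.18 for *Gnptab* and -0.01 for *Elf2*. These are descriptions over libraries that share their groups and depth.

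Among 10483 other genes that averaged 50 or more counts, the one most like *Elf2* was *Sorl1* (r = 0.91 over 19 libraries), which encodes a sorting receptor, followed by *Golga4* (0.78) and *Extl3* (0.77). *Sorl1* had a log2 fold change of 1.33 ± 0.27 (SE) in CMPs with both shRNAs, which did not pass (edgeR adjusted p = 0.0700), and -0.18 in LSK cells. The genes most like *Trpm7* were *Rlim* (0.95), *Etnk1* (0.93) and *Rif1* (0.93). Those most like *Ankfy1* were *Ncapg2* (0.94), *Virma* (0.94) and *Trpm7* itself (0.92). *Hdlbp* was most like *Ncapg2* (0.93), a condensin subunit, *Smchd1* (0.92) and *Slc35a3* (0.91), and *Gnptab* most like *Clip1* (0.90), *Kif16b* (0.90) and *Man1a* (0.89). Without LSK sh10 replicate B the r of *Sorl1* with *Elf2* was 0.92, and the r of these nearest genes with the other 4 fell to between 0.79 and 0.87.

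Each gene was then set beside the family or pathway it belongs to, leaving the gene itself out. Beside all genes tested, the median log2 fold change in CMPs with both shRNAs was 0.02, and no member of any of these lists passed in that comparison. Of 17 ETS factors tested with *Elf2* left out, the median was 0.05 in CMPs, with *Spic* at 0.85 and *Ets1* at -0.80, and -0.09 in LSK cells. With sh20 alone *Spic*, a factor of macrophages, was called higher in CMPs (1.73 ± 0.44 SE, edgeR adjusted p = 0.0482), 1 of 17 against 1.9% of all genes. Of 16 magnesium transporters and TRPM channels, 13 were positive and 3 negative in CMPs with both shRNAs, where 52.9% of all genes were positive, with a median of 0.20, from *Trpm4* at -0.96 to *Mrs2*, a mitochondrial magnesium channel, at 0.52. None of this list was called with either hairpin, and its median was 0.03 in LSK cells.

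Of 45 genes of the Rab5 early endosome and the retromer, the median was 0.02 in CMPs with both shRNAs, from *Rab5c* at 0.61 to *Zfyve16* at -0.36 among those with at least 50 counts, and -0.05 in LSK cells. *Vps8*, a subunit of the CORVET tethering complex, was called higher with sh10 (0.42 ± 0.08 SE, edgeR adjusted p = 0.0416) and with sh20 (0.40 ± 0.09, 0.0389). With sh20 *Rbsn* was also called higher (0.74 ± 0.17, adjusted p = 0.0338), while *Snx3* (-0.32 ± 0.07, 0.0291) and *Vps11* (-0.43 ± 0.11, 0.0498) were called lower. With sh10 the calls were 1 higher of 46, against 0.977% of all genes. With sh20 they were 2 higher and 2 lower of 46, against 1.9% and 4.27%.

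Of 29 genes of KH domain RNA binding proteins other than *Hdlbp*, the median in CMPs was 0.14, with *Khsrp*, a factor in mRNA decay, at 0.71 and *Khdrbs3* at -0.42, and in LSK cells it was -0.06. With sh10 *Khsrp* (0.80 ± 0.16 SE, edgeR adjusted p = 0.0417) and the splicing factor *Sf1* (0.28 ± 0.05, 0.0349) were called higher, and with sh20 *Pcbp1* (-0.42 ± 0.06, 0.0093) and *Hnrnpk* (-0.30 ± 0.06, 0.0225) were called lower. These were 2 of 29 higher with sh10, against 0.977% of all genes, and 2 of 29 lower with sh20, against 4.27%.

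Of 15 other genes of mannose 6-phosphate tagging and sorting, the median was 0.11 in CMPs and -0.01 in LSK cells. *Igf2r*, the larger mannose 6-phosphate receptor, was at 0.72 ± 0.25 (SE) in CMPs and *Gnptg*, which encodes the gamma subunit of the same phosphotransferase as *Gnptab*, at -0.30 ± 0.10, and neither passed (edgeR adjusted p = 0.177 and 0.167). With sh20 the adaptor subunit *Ap1m1* was called lower (-0.23 ± 0.05, adjusted p = 0.0425), 1 of 15 against 4.27% of all genes. Of 44 lysosomal hydrolases, the cargo of this tag, the median was 0.07 in CMPs and 0.09 in LSK cells, from *Naglu* at -0.28 to *Lgmn* at 0.87 in CMPs. With sh10 *Psap*, the precursor of the saposins, was called higher (0.57 ± 0.12, adjusted p = 0.0487), 1 of 44 against 0.977% of all genes, and with sh20 no hydrolase was called. In LSK cells no member of these 6 lists was called with both shRNAs, sh10 or sh20, with or without sh10 replicate B. Without that library the LSK medians with both shRNAs were -0.035 for ETS factors, 0.14 for magnesium transporters and TRPM channels, -0.025 for the Rab5 and retromer genes, 0.0073 for KH proteins, 0.014 for mannose 6-phosphate tagging and 0.041 for the hydrolases, against 0.0071 for all genes.

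Markers of other cells moved with the hairpins in CMPs. In summed level, 11 lymphoid markers were at 25.1 to 37.5 CPM with sh10. They were at 54.4 to 120.4 CPM with *Renilla* shRNA and 170.5 to 219 CPM with sh20. *Cd3g*, *Cd3e* and *Cd3d* were called lower with sh10 (log2 fold change -5.45, -4.42 and -4.97, edgeR adjusted p from 0.0221 to 0.0260). These were 3 of 6 lymphoid markers tested, against 0.991% of all genes. *Cd3e* itself was at 0 to 1.02 CPM with sh10, 8.35 to 16.4 with *Renilla* shRNA and 11.97 to 33.4 with sh20. In LSK cells the 7 neutrophil markers summed to 4.41 to 311 CPM with *Renilla* shRNA, 65.3 to 314 with sh10 and 6.50 to 12.045 with sh20, and the lymphoid markers to 67.9 to 77.0, 70.7 to 109.6 and 80.7 to 107 CPM. Without sh10 replicate B the sh10 sums ran to at most 89.9 CPM for neutrophil, 71.9 CPM for lymphoid and 289 CPM for macrophage markers. In CMPs 6 macrophage markers summed to 36.5 to 233 CPM with *Renilla* shRNA, 78.1 to 89.5 with sh10 and 224 to 278 with sh20. With sh20 *C1qa* was called higher (1.82 ± 0.46 SE, edgeR adjusted p = 0.0494), 1 of 6 against 1.9% of all genes. By hairpin, 4 of the 6 macrophage markers were negative in CMPs with sh10 (median log2 fold change -0.39) and all 6 were positive with sh20 (1.47). With both shRNAs pooled all 6 were positive, with a median of 0.73 against 0.02 for all genes, and none passed. In LSK cells the macrophage markers summed to 246 to 375, 179.6 to 361 and 365 to 462 CPM and the stromal and endothelial markers to 107 to 171 CPM. The red cell markers in LSK cells summed to 5.04 to 10.7 CPM with *Renilla* shRNA, 8.07 to 40.8 with sh10 and 5.07 to 105.4 with sh20. The 4 of 6 red cell markers tested by hairpin there were positive with each, with median log2 fold changes of 1.36 with sh10 and 2.12 with sh20, and none passed. In CMPs the 6 red cell markers summed to 30.6 to 82.5, 13.2 to 34.2 and 58.2 to 65.5 CPM with *Renilla* shRNA, sh10 and sh20, the 7 markers of mature neutrophils to at most 11.6 CPM, and the 6 stromal and endothelial markers to 79.1 to 121 CPM.

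Among markers of the sorted cells themselves, 10 stem and LSK markers had a median log2 fold change of -0.31 in CMPs with both shRNAs. The median of all genes was 0.02, and no stem or LSK marker passed in that comparison. By hairpin their median was -0.74 with sh10 (3 positive, 7 negative) and -0.016 with sh20 (5 positive, 5 negative). Of 9 CMP and myeloid markers the median with both shRNAs was 0.15, from *Itga2b* at -0.36 to *Ctsg* at 0.90. *Cd34* was called lower with sh20 (-0.85 ± 0.13 SE, edgeR adjusted p = 0.00971), 1 of 9 against 4.27% of all genes. The part of any of these markers in the levels of the 5 genes was not tested.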

How the data were processed

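RNA was sequenced from LSK and CMP populations in 19 libraries made with a SMART-Seq v4 kit. The values deposited by the authors are whole counts of reads per gene: STAR mapped the reads to mm10, Picard removed duplicate alignments and HTSeq-count counted them. Reads that HTSeq-count assigned to no feature, 52.3% to 54.3% of those assigned or left without a feature, were left out. A normalised table of the same libraries was not used here. Duplicate removal can lower the count of abundant short genes, and its size was not analysed here.

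Each cell type was fitted on its own with edgeR (quasi-likelihood F test, TMM, filterByExpr at 10 counts per library and 15 in total), with sh10 and sh20 pooled or as separate groups. P-values were adjusted over all genes tested by the Benjamini-Hochberg method at 0.05. SE is the log2 fold change divided by the root of F. Log2 CPM used a prior count of 2. Exonic lengths from GENCODE vM21 matched 53669 of 54352 genes by symbol. Exact permutation tests used log2 CPM. Named genes are the 5 members, the 3 genes most correlated with each among those with a mean of at least 50 counts, up to 4 called genes per list by smallest p, and otherwise the highest and lowest members with that mean. *Cd3e*, *Ly6a*, *Kit* and the genes at the threshold were named after their values were seen. A called gene of the marker lists is not reported here. Members and lists were chosen with earlier results of these data known. Alternatives were DESeq2, other size factors, no filter, replicate letters as a block, all libraries in 1 fit, log2 total counts, an exonic length offset and leaving out each library. The fit of all libraries without LSK sh10 replicate B was added after seeing the data. In simulated data edgeR recovered 111 of 200 genes changed 2-fold among 12912 in CMPs, with 3 false calls, and 122 of 200 among 13441 in LSK cells, with 6. The simulated counts held no trend with gene length and no outlying library, unlike the real ones. Changes smaller than 2-fold were not simulated, so their recovery was not measured. No 2 libraries of a group agreed within sampling noise (lowest chi-square per degree of freedom 4.31). Models were run in DESeq2 1.42.0 and edgeR 4.0.16 under R 4.3.3. Tables and figures were made with matplotlib 3.10.9, pandas 2.3.3, scipy 1.17.1 and numpy 2.4.6 under Python 3.11.15.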

Additional observations from a re-analysis of the deposited data

Results flagged for a closer look

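In LSK cells with both *Spehd* shRNAs, *Trpm7* in the lowest library, sh10 replicate B, was at 5.44 log2 CPM, and the gap to the next library was 0.697 of the range of the 6 libraries, above the critical value of 0.625. *Hdlbp* in the same library was at 7.07 log2 CPM, with a gap of 0.664 of the range. These were 2 of 20 groups examined for the 5 genes, and chance flags about 1 in 20. The same library was also lowest for *Elf2*, *Ankfy1* and *Gnptab* among those 6, and the median log2 deviation of the longest genes in it was -0.61.

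With sh20 in LSK cells *Ankfy1* had a log2 fold change of -0.37, with all 3 libraries below all 4 controls, while in CMPs it was 0.57, with both libraries above all controls. The cell types thus went opposite ways in every library, and this difference was not tested, since the CMP libraries chose the gene. The median of the longest length class, which holds *Ankfy1*, was also of opposite sign with sh20, at 0.079 in CMPs and -0.15 in LSK cells. The CMP value of *Ankfy1* with sh20 changed sign with log2 totals as a covariate, as given below.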

How the results depend on the processing

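In LSK cells none of the 5 genes passed the threshold in any comparison under any setting run. With an exonic length offset, the value with both shRNAs changed sign for *Trpm7* (0.046) and *Hdlbp* (0.095), with sh10 for *Trpm7* (0.025) and *Hdlbp* (0.0045), with sh20 for *Trpm7* (0.069), and between hairpins for *Trpm7* (0.044). A covariate of log2 totals changed the sign for *Gnptab* with sh10 (-0.38), for *Hdlbp* with sh20 (-0.10), and between hairpins for *Trpm7* (0.15), *Ankfy1* (0.044) and *Gnptab* (0.043). Without a filter *Trpm7* with sh10 was at 0.001, and as a difference of mean log2 CPM *Gnptab* with sh10 was at -0.17. Leaving out each library gave, with both shRNAs, -0.37 to -0.11 for *Elf2*, -0.18 to 0.14 for *Trpm7*, -0.46 to -0.18 for *Ankfy1*, -0.082 to 0.098 for *Hdlbp* and -0.18 to 0.11 for *Gnptab*. With sh10 it gave -0.30 to 0.086, -0.36 to 0.41, -0.62 to 0.065, -0.30 to 0.17 and -0.33 to 0.37, with sh20 for *Hdlbp* -0.082 to 0.12 and for *Gnptab* -0.32 to 0.046, and between hairpins -0.49 to 0.28 for *Trpm7*, -0.45 to 0.24 for *Ankfy1*, -0.14 to 0.33 for *Hdlbp* and -0.48 to 0.23 for *Gnptab*.

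In CMPs with both shRNAs, log2 total counts as a covariate gave 0.88, 0.12, 0.068 and 0.20 for *Elf2*, *Trpm7*, *Ankfy1* and *Hdlbp*, and turned *Gnptab* to -0.042. With sh20 it turned *Ankfy1* to -0.047 and *Gnptab* to -0.22. The length offset gave 0.38, 0.38 and 0.39 for *Ankfy1*, *Hdlbp* and *Gnptab*. Leaving out each library kept every CMP value positive, from 0.44 to 0.51 for *Gnptab* up to 1.01 to 1.18 for *Elf2* with both shRNAs. The adjusted p that chose the 5 genes did not hold in every setting. All 5 passed with DESeq2, other size factors, upper quartile normalization, no filter and without CMP sh20 replicate B. *Elf2* alone passed in the fit of all libraries and with the length offset, and none passed with log2 totals or the replicate block. Without CMP sh20 replicate C *Elf2*, *Hdlbp* and *Gnptab* passed, and without *Renilla* replicate C or sh10 replicate A *Hdlbp* alone. None passed without *Renilla* replicate A, B or D or sh10 replicate B or C, where edgeR adjusted p ran from 0.0502 to 0.157. In a fit of all libraries but LSK sh10 replicate B, added after seeing the data, the difference of CMPs from LSK cells with sh10 turned to -0.14 for *Trpm7*. The causes were not tested.

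Counts of genes called over all genes depended on the processing, and no member count rests on them beyond the rule. For CMPs with both shRNAs 15 genes became 328 with upper quartile normalization, 29 without a filter, 882 with DESeq2, 364 in the fit of all libraries, 5 with log2 totals, and 0 to 264 leaving out each library, where 264 was without sh20 replicate B and only sh20 replicate C could be left out within 1.5 times. For sh10 in CMPs 272 became 451, 797, 1209, 145, 1 and 9 to 1020 in the same order, where 1020 was without sh20 replicate C, and 150 with the length offset. For sh20 in CMPs 853 became 1709 with DESeq2, 20 with log2 totals and 430 to 3191, where 3191 was without sh20 replicate C. In LSK cells 0 became 9, 3 and 1 for sh10 without a filter, with DESeq2 and with all libraries, 73, 195 and 12 for sh20, and 113, 256 and 28 between hairpins. Log2 totals gave 8 for sh20 and 15 between hairpins, the length offset 1, 2 and 6 for sh10, sh20 and between hairpins, and leaving out libraries 0 to 1 for sh20 and 0 to 5 between hairpins.

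Nothing in the labels says that a letter joins libraries, and r of the deviations in the 16 same-letter pairs of a cell type ran from -0.175 to 0.156. Across cell types, r was 0.00306 to 0.259 (median 0.0435) in the 9 pairs of the same letter and shRNA, and -0.214 to 0.131 (median -0.0319) in the 22 pairs of another letter, a hint from the data only. The contrasts of CMPs with LSK cells were fitted without such pairs. With the letters as a replicate block, CMP calls went to 0 with both shRNAs, 5 with sh10 and 0 with sh20, and the CMP values with both shRNAs stayed positive, from 0.48 to 1.18. In LSK cells the block gave 0.013 for *Elf2* and -0.19 for *Gnptab* with sh10, and 0.11 for *Trpm7* between hairpins.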
